A study of Canis lupus familiaris with 4 samples.

Results

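Collagen, laminin and ADAMTS genes were taken, by symbol, from the region tables of a canine lymphoma line and its drug-resistant derivative. The symbols were COL, LAMA, LAMB or LAMC followed by a digit, and those that begin with ADAMTS. In all, 81 genes had at least 1 region, and they held 694 of the 123421 regions listed for CLBL-1 8.0, against 508 of the 82247 listed for CLBL-1. They comprised 44 collagen, 12 laminin, 19 ADAMTS and 5 ADAMTS-like (ADAMTSL) genes. The remaining symbol, COL4A3BP, matches by its letters only: it encodes a ceramide transfer protein and had 3 regions in CLBL-1 8.0 against 1 in CLBL-1.

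CLBL-1 8.0 is a doxorubicin-resistant form of CLBL-1, kept in medium with 8 µM doxorubicin, and CLBL-1 is the parental canine diffuse large B-cell lymphoma line, grown without the drug. Both were cultured in serum-containing RPMI medium, and each is represented by 1 culture as far as the labels say. Genomic DNA was measured by MethylCap-seq, in which fragments carrying methylated CpGs are pulled down on a methyl-binding domain and sequenced. Each line gave 1 low salt library, labelled low-methylated, and 1 high salt library, labelled medium to high-methylated, so each of the 4 groups has 1 library and no difference has a replicate check. Each line has a single list of captured regions that does not separate its eluates. The fold enrichment of a region is the authors' value and is read within its own list. Read depth is unknown, so a region missing from a list may lie below detection, and no p-value is given. The tables hold no expression, so the B-cell label was not checked against markers. Exact Clopper-Pearson 95% intervals stand in parentheses after some percentages and cover counting error only.

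Collagens are triple-helical proteins that form fibrils, networks and surface coats of the extracellular matrix. Laminins are cross-shaped heterotrimers of an alpha, a beta and a gamma chain that, with type IV collagen, build the basement membrane. ADAMTS proteins are secreted zinc metalloproteinases with thrombospondin repeats that trim procollagens and cleave proteoglycans, and the ADAMTSL proteins resemble them but lack the catalytic domain. DNA methylation near a transcription start is widely studied as a mark of silenced genes, while methylation inside gene bodies is common and has no single reading.

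Captured regions were listed in or beside nearly every gene of these families. Of the 79 symbols in the dog RefSeq names that match the rule, 79 had a region in CLBL-1 8.0, against 73 (92.4%, 84.2 to 97.2) with a region in CLBL-1. Over all 17395 named protein-coding symbols the share was 76.3% for CLBL-1 8.0 and 63.0% for CLBL-1. Long genes have more room for a region, and gene length was not used here. Most member regions lay in introns. CLBL-1 8.0 had 476 intron, 133 exon, 56 upstream and 29 downstream regions, and CLBL-1 had 322, 112, 49 and 25 of these kinds.

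Each family had more regions in CLBL-1 8.0, and the excess lay mainly in introns. Collagen genes had 348 regions in CLBL-1 8.0 against 278 in CLBL-1, a ratio of 1.25. Laminin genes had 127 against 91, a ratio of 1.40. ADAMTS genes had 171 against 111, a ratio of 1.54, and ADAMTSL genes had 45 against 27, a ratio of 1.67. Over all regions assigned to a gene, 87053 in CLBL-1 8.0 against 56848 in CLBL-1, the ratio was 1.53. Collagens and laminins thus lay below the ratio of all genes, and both ADAMTS families at or above it.

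Promoter regions differed least between the lines. A promoter region here is one that carries the authors' promoter flag, which goes with contact to the 3000 bp upstream of the transcription start. Collagen genes had 28 promoter regions in CLBL-1 8.0 against 27 in CLBL-1, laminin genes 9 against 8, and ADAMTS genes 17 against 13. ADAMTSL genes went the other way, with 6 in CLBL-1 8.0 against 7 in CLBL-1. Exon regions, coding and untranslated together, numbered 69 in CLBL-1 8.0 against 64 in CLBL-1 for collagens, 25 against 21 for laminins, 31 against 21 for ADAMTS genes and 8 against 6 for ADAMTSL genes. Intron regions showed the widest gaps: collagens had 239 in CLBL-1 8.0 against 177 in CLBL-1, laminins 93 against 62, ADAMTS genes 115 against 71, and ADAMTSL genes 27 against 12. The ratio for all members was 1.09 in promoters, 1.19 in exons and 1.48 in introns, beside 1.24, 1.33 and 1.69 for the same classes over all genes.

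**Figure D1:**
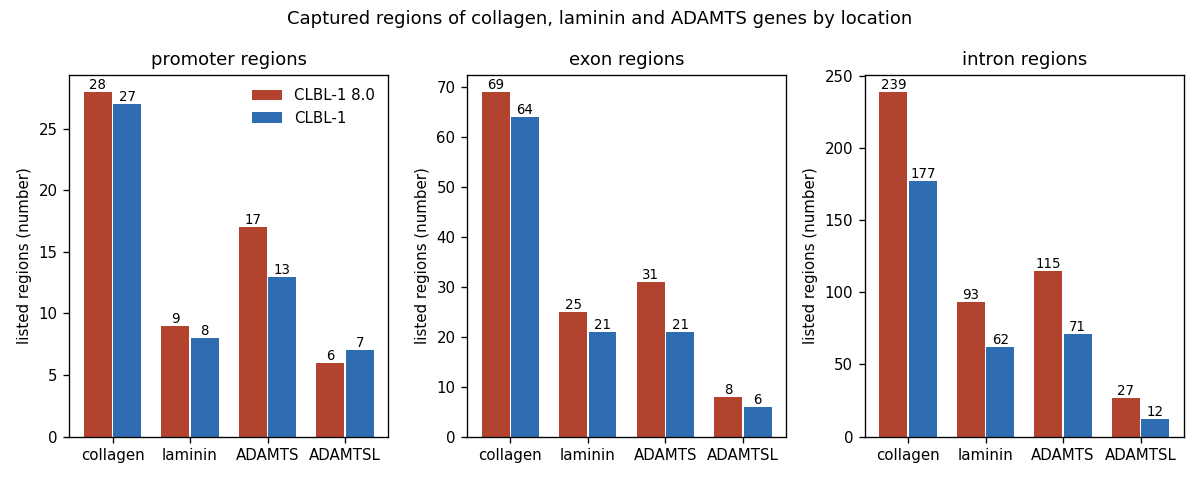
Number of listed regions (vertical axes, each starting at 0 with its own scale) per family, for promoter, exon and intron regions, with CLBL-1 8.0 in red and CLBL-1 in blue. Collagen introns hold 239 regions in CLBL-1 8.0 against 177 in CLBL-1, while collagen promoters hold 28 against 27; each bar is a count from a single list, without replicates, and all 3 collagen directions turn round when the lists are brought to equal length.

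The surplus depends on the length of the lists. When the CLBL-1 8.0 list was shortened by fold to the 82247 regions of the CLBL-1 list, collagen introns had 159 regions in CLBL-1 8.0 against 177 in CLBL-1, and the direction turned round. ADAMTS and ADAMTSL introns together still had 113 against 83, and laminin introns 68 against 62. Exon regions turned round in all 3 families, with 40 in CLBL-1 8.0 against 64 in CLBL-1 for collagens, 15 against 21 for laminins and 22 against 27 for ADAMTS and ADAMTSL genes together. Promoter ratios were then also below 1, at 0.852 for collagens, 0.75 for laminins and 0.95 for ADAMTS and ADAMTSL genes. With only regions above the median fold of both lists pooled, they were instead 1.25, 1.5 and 1.0 in the same order. The folds of the lists need not share a scale, so neither count is a measure of methylation gained or lost.

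By structure, fibrillar collagens, the rod-like chains of tendon, skin and cartilage, had 93 regions in CLBL-1 8.0 against 76 in CLBL-1 over 11 genes. FACIT collagens, which coat fibrils, had 84 against 74 over 10 genes, and the 4 transmembrane collagens had 48 against 36. The 6 type IV chains had 35 against 25, and the 3 short-chain type VIII and X collagens had 11 against 10. Type VI collagens, which form beaded filaments, had more exon than intron regions in both lines: of their 33 regions in CLBL-1 8.0, 20 were exonic and 5 intronic, and of their 32 in CLBL-1, 17 were exonic and 7 intronic. The type VIII and X group had 5 exon and 3 intron regions in CLBL-1 8.0, against 2 and 4 in CLBL-1. Every collagen subgroup had more regions in CLBL-1 8.0, by 1 region in the type VI and the type VIII and X groups.

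Gene by gene, 57 of the 81 members (70.4%, 59.2 to 80.0) had more regions in CLBL-1 8.0, 10 (12.3%, 6.08 to 21.5) had fewer and 14 had equal numbers. Of 14273 named genes in either list, 65.2% had more and 9.14% had fewer in CLBL-1 8.0, so the members lie near that background. The 10 members with most regions carried 31.6% of member regions in CLBL-1 8.0 against 34.6% in CLBL-1.

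Among collagens, COL22A1, a FACIT collagen known from tissue junctions, had the most regions of any member, 39 in CLBL-1 8.0 against 32 in CLBL-1, of which 34 against 28 lay in introns. COL27A1, a fibrillar collagen of cartilage, had 24 in CLBL-1 8.0 against 22 in CLBL-1. COL13A1, a transmembrane collagen of adhesive structures, had 21 against 20, and COL23A1, another transmembrane collagen, had 16 against 13. COL5A1, whose chain regulates fibril diameter, had 17 regions in each list, and COL6A3, a type VI chain, had 14 in CLBL-1 8.0 against 15 in CLBL-1. These 6 collagens with many regions differed by at most 7 between the lines.

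COL26A1 and COL24A1 were named for their wider gaps in region number. COL26A1 had 19 regions in CLBL-1 8.0 against 10 in CLBL-1, and COL24A1, a fibrillar collagen, had 12 against 4. In CLBL-1 8.0, 18 of the 19 COL26A1 regions lay outside CpG islands and shores (the flanks of islands), and 11 met no CLBL-1 region. For COL24A1, 9 of 12 lay outside and 8 met none. Its 4 CLBL-1 regions all had a counterpart, and 3 of those 4 began at most 1269 bp from the start. Over all gene regions of CLBL-1 8.0, 39.6% met no CLBL-1 region and 61.3% lay outside islands and shores. Genes picked for a wide gap must hold many unmatched regions, so these counts add no separate evidence. The gaps of single genes were not recomputed at equal list length. Both genes lie on chromosome 6, where all listed regions stood at a ratio of 1.98 between the lines, and the part of the chromosome in these gene counts was not tested.

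Fewer regions in CLBL-1 8.0 were seen in 10 members, by 1 to 3 regions. COL20A1, a FACIT collagen, had 8 regions in CLBL-1 8.0 against 11 in CLBL-1, and LAMA5, an alpha chain of many adult basement membranes, had 13 against 15. Both lie on chromosome 24, where members had 24 regions in CLBL-1 8.0 against 29 in CLBL-1 while all listed regions stood at a ratio of 1.35. COL1A1 (4 against 5), COL5A2 (9 against 10), COL6A1 (7 against 8), COL6A3 (14 against 15), COL9A1 (2 against 3), COL10A1 (2 against 3), ADAMTS8 (7 against 8) and ADAMTSL5 (2 against 3) each had 1 region fewer in CLBL-1 8.0.

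COL20A1 and COL18A1 were captured weakly and in islands only, and other members came close to this. All 8 COL20A1 regions in CLBL-1 8.0, and all 11 in CLBL-1, carried the CpG island flag. So did all COL18A1 regions, 8 in CLBL-1 8.0 against 7 in CLBL-1. COL18A1 encodes a multiplexin collagen from which endostatin is released. The highest fold was 3.23 for COL20A1 and 2.35 for COL18A1 within the CLBL-1 8.0 list, and 3.49 and 2.64 within the CLBL-1 list, where the median over all regions was 5.06 for CLBL-1 8.0 and 5.95 for CLBL-1. The median over island regions alone is not given here. ADAMTSL5 also had island regions only, 2 in CLBL-1 8.0 against 3 in CLBL-1, with highest folds of 3.03 and 3.01. For COL6A1, 6 of 7 in CLBL-1 8.0 and 6 of 8 in CLBL-1 lay in islands, with highest folds of 2.66 and 2.57.

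Laminin alpha chains had 68 regions in CLBL-1 8.0 against 53 in CLBL-1, and beta chains 33 against 24. LAMA2, the muscle laminin alpha chain, had 27 in CLBL-1 8.0 against 21 in CLBL-1, of which 25 against 20 were intronic. LAMA3, an alpha chain of epithelial laminins, had 12 against 4, and 8 of the 12 met no CLBL-1 region. Over all gene regions of CLBL-1 8.0, 39.6% met none, and LAMA3 was named for its wide gap. LAMC1, the gamma 1 chain shared by most laminins, had 7 regions in CLBL-1 8.0 and none listed in CLBL-1. All 7 lay outside islands and shores, had folds of 4.43 to 10.8, were 258 to 360 bp long and met no CLBL-1 region. LAMC1 lies on chromosome 7, where all listed regions stood at a ratio of 1.62.

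The ADAMTS families held several of the widest gaps. ADAMTS12, which cleaves cartilage oligomeric matrix protein, had 23 regions in CLBL-1 8.0 against 9 in CLBL-1, of which 21 against 8 lay in introns. Of the 23, 13 met no CLBL-1 region, while all 9 CLBL-1 regions met a region of CLBL-1 8.0. Over all gene regions, 39.6% in CLBL-1 8.0 and 8.9% in CLBL-1 met none, so the same one-sided pattern holds over all genes. ADAMTS12 was also named for its wide gap, which by itself brings unmatched regions. ADAMTSL1 had 16 in CLBL-1 8.0 against 6 in CLBL-1, and ADAMTSL3 had 11 against 4. ADAMTS3, a procollagen N-propeptidase, had 12 against 4, and its relative ADAMTS14 had 19 against 17. ADAMTS6 had 6 regions in CLBL-1 8.0 and none in CLBL-1, all outside islands and shores with folds of 4.43 to 6.65. ADAMTS13, which cleaves von Willebrand factor, had 4 in CLBL-1 8.0 against 3 in CLBL-1, and the 7 proteoglycan-cleaving ADAMTS genes together had 41 against 27. The widest gaps over all members, in ADAMTS12, ADAMTSL1, COL26A1, ADAMTS3, COL24A1, LAMA3, ADAMTSL3, COL22A1, LAMC1, ADAMTS6 and LAMA2, made up 90 of the summed surplus of 186 regions, or 48.4%.

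**Figure D2:**
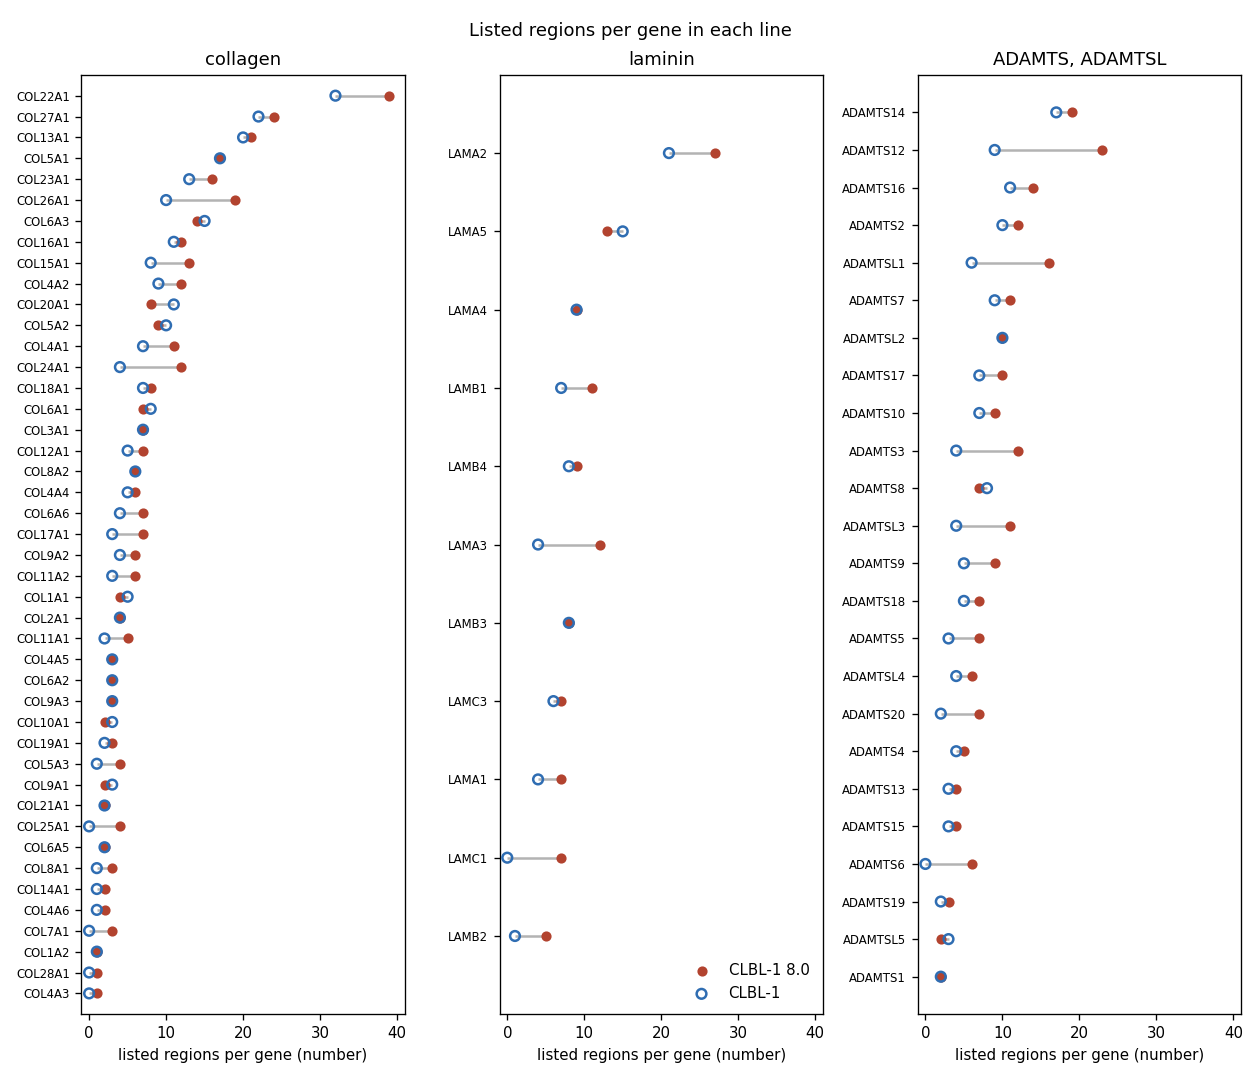
Listed regions per gene (horizontal axis, number) in CLBL-1 8.0 (filled red) and CLBL-1 (open blue), in panels for collagen, laminin and ADAMTS with ADAMTSL genes, ordered by the sum over both lists; COL4A3BP is not drawn. COL22A1 reaches 39 regions in CLBL-1 8.0 against 32 in CLBL-1, and the longest lines join 23 with 9 for ADAMTS12 and 16 with 6 for ADAMTSL1; each point is a count from 1 list.

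Some genes absent from the CLBL-1 gene column nevertheless had captured DNA at their start. ADAMTS6 (6 regions in CLBL-1 8.0), COL25A1 (4), COL28A1 (1), COL4A3 (1), COL7A1 (3) and LAMC1 (7) were named in the CLBL-1 8.0 table only, and no member was named in the CLBL-1 table only. Of 14273 named genes in either list, 14055 were named for CLBL-1 8.0 and 11609 for CLBL-1, beside 81 and 75 of the 81 members. Genes named for CLBL-1 8.0 alone were thus common outside these families too. COL7A1, the anchoring fibril collagen, had a CLBL-1 8.0 region at chr20:40519166-40519790 (CanFam3.1, in its 5′ untranslated region), 45 bp inside the gene, with a fold of 7.76. In the CLBL-1 table, a row at chr20:40519121-40519776 begins at the COL7A1 start site itself and has a fold of 14.1. Its cells are displaced, so that the words Promoter and TSS stand in other columns and no gene is named. It is 1 of 2 such rows in the CLBL-1 table, beside 6 in the CLBL-1 8.0 table. With that row counted for COL7A1, 76 members had a region in CLBL-1, in place of 75.

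Promoter regions were listed for 51 members in CLBL-1 8.0 (63.0%, 51.5 to 73.4) against 47 in CLBL-1 (58.0%, 46.5 to 68.9), with 45 genes in both and 28 in neither. Of the named genes in either list, 46.8% had a promoter region in the CLBL-1 8.0 list, against 37.8% in the CLBL-1 list. A promoter region in CLBL-1 8.0 alone was listed for 6 members (7.41%), where 12.3% of named genes had one. In CLBL-1 alone it was listed for 2 (2.47%), where 3.22% of named genes had one. Collagens had 26 promoter genes in CLBL-1 8.0 against 25 in CLBL-1, laminins 7 against 6, ADAMTS genes 14 against 12, and ADAMTSL genes 4 in each list. Of the promoter regions themselves, 4 of 60 in CLBL-1 8.0 (6.67%, 1.85 to 16.2) met no CLBL-1 region, where 24.0% of all promoter regions met none. In CLBL-1, 3 of 55 (5.45%, 1.14 to 15.1) met no CLBL-1 8.0 region, where 5.68% of all promoter regions met none.

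Most of the 8 differences in gene name were not differences in captured DNA. COL4A3 and COL4A4 encode type IV chains of the kidney filtration membrane, and their starts lie 488 bp apart on opposite strands. The region over both starts was chr25:39975316-39976127 (fold 11.8) in CLBL-1 8.0, where the table names COL4A3. In CLBL-1 it was chr25:39975288-39976154 (fold 14.2), where the table names COL4A4. COL5A3, a fibrillar chain, had a promoter region at chr20:51037399-51038888 in CLBL-1 8.0 (fold 11.2), met by a CLBL-1 region assigned to RDH8 (fold 12.9). COL25A1, a transmembrane collagen of neurons, had a region over its start at chr32:29566976-29568659 in CLBL-1 8.0 (fold 6.91), met by a CLBL-1 region assigned to LOC102152752 (fold 7.03). For COL9A3, a FACIT collagen of cartilage, CLBL-1 8.0 had a region assigned to the 3′ untranslated region of OGFR (fold 3.26) and CLBL-1 an overlapping promoter region (fold 3.28). The CLBL-1 8.0 region stopped 3031 bp before the COL9A3 start and the CLBL-1 region 2971 bp before it, on either side of the window's edge. These 5 genes were therefore captured in both lines and differed in the name or the edge of the region.

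For the other 3 of the 8 genes, no CLBL-1 region lay under the promoter region of CLBL-1 8.0. ADAMTS10, a fibrillin-associated protease, had a region in a CpG shore at chr20:53111816-53112323, ending 1283 bp before the start, with a fold of 3.66. ADAMTS2, a procollagen N-propeptidase of skin, had a shore region at chr11:2279291-2279568, beginning 692 bp before the start, with a fold of 3.72. LAMC1 had a region at chr7:16404659-16405019, beginning 1762 bp before the start, outside islands and shores and flagged as an enhancer, with a fold of 6.33. None of these 3 genes had a region across its start in either list.

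The start base and the 3000 bp upstream were also taken as a window by position alone, whatever gene the tables name. Within that window, 53 members had a region in CLBL-1 8.0, against 52 in CLBL-1. It was present in CLBL-1 8.0 alone for ADAMTS10, ADAMTS2 and LAMC1, 3 of 81 members, where 11.0% of named genes showed this. It was present in CLBL-1 alone for COL7A1 and COL9A3, 2 of 81, where 1.97% showed this. Both differ by the edges of overlapping regions. The COL7A1 region of CLBL-1 meets the window at the start base only and lies otherwise inside the gene. That of CLBL-1 8.0 begins 45 bp inside the gene. Within 1000 bp on either side of the start, 51 members had a region in CLBL-1 8.0 against 52 in CLBL-1. The share over named genes was 47.3% for CLBL-1 8.0 and 41.5% for CLBL-1. No member had such a region in CLBL-1 8.0 alone, where 7.4% of named genes did, and LAMA5 had it in CLBL-1 alone, where 1.61% did. Captured DNA at the starts of these genes was thus listed at nearly the same members in both lines, with 51 members shared.

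The families differed in how close to the start the capture fell. A region within 1000 bp of the start was listed, in each line, for 30 of 44 collagens, 15 of 19 ADAMTS genes and 4 of 5 ADAMTSL genes. Of the 12 laminins it was listed for LAMA3 and LAMC3 in CLBL-1 8.0, and for these and LAMA5 in CLBL-1. The start base itself was covered in 24 collagens in CLBL-1 8.0 against 25 in CLBL-1, in 3 ADAMTSL genes against 2, and in 11 ADAMTS genes and 1 laminin (LAMA3) in each line. Other laminin promoter regions lay farther upstream. In CLBL-1 8.0 the edge nearest the start lay 1932 bp upstream for LAMB3 and 2481 bp for LAMB1. For the nearer of 2 LAMB2 regions it lay 1504 bp upstream. In CLBL-1 that edge lay 1842 bp upstream for LAMB3, 1609 bp for LAMB2 and 2357 bp for LAMB1. LAMA5, by contrast, had regions 831 bp (fold 2.32) and 1462 bp (fold 2.23) upstream in CLBL-1 that no CLBL-1 8.0 region met.

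**Figure D3:**
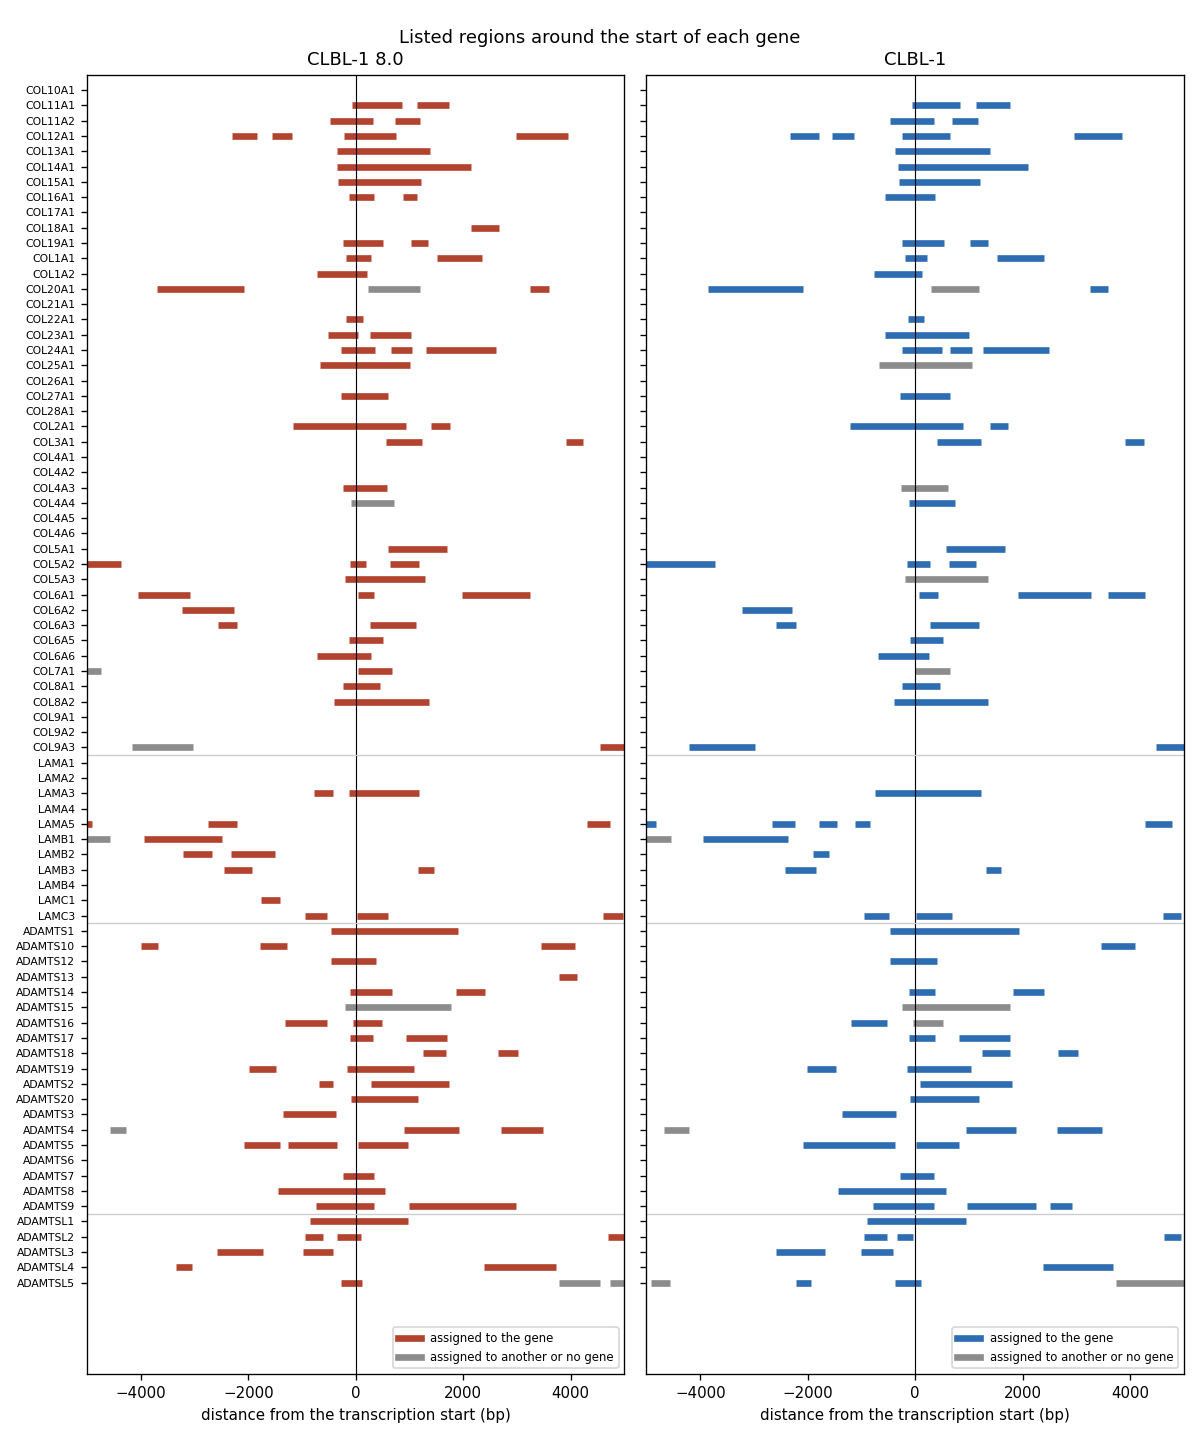
Every listed region within 5000 bp of each gene's transcription start (0 on the horizontal axis, bp, upstream to the left), 1 row per gene by family with COL4A3BP not drawn, CLBL-1 8.0 in the left panel and CLBL-1 in the right; grey marks regions that the table assigns to another gene or to none. Collagen and ADAMTS starts covered in CLBL-1 8.0 (24 and 11) stand beside those covered in CLBL-1 (25 and 11), whereas among the laminins drawn LAMA3 alone has its start covered.

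Type IV collagen genes, which lie in pairs on opposite strands, were captured at a single pair of starts. COL4A3 and COL4A4 shared the region described above. No region of either list lay between or within 1000 bp of the starts of COL4A1 and COL4A2, 4630 bp apart on chromosome 22, or of COL4A5 and COL4A6, 1114 bp apart on chromosome X. The region nearest the COL4A1 start was 21005 bp away in CLBL-1 8.0 against 20949 bp in CLBL-1, and that nearest the COL4A5 start was 73841 bp away against 73799 bp. The bodies of these genes were captured, with 11 regions in CLBL-1 8.0 against 7 in CLBL-1 for COL4A1, 12 against 9 for COL4A2 and 3 in each list for COL4A5. ADAMTS8 and ADAMTS15, proteases with starts 336 bp apart on opposite strands, likewise shared a region, assigned to ADAMTS8 in both lists.

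The promoter regions of highest fold were COL8A1 (14.2), COL6A5 (14.1) and COL4A3 (11.8) among collagens in CLBL-1 8.0, and COL6A5 (20.9), COL8A1 (15.7) and COL19A1 (14.3) in CLBL-1. COL8A1 encodes a network-forming collagen of vessel walls, COL6A5 a type VI chain and COL19A1 a FACIT collagen. Among laminins they were LAMA3 (6.91), LAMC1 (6.33) and LAMC3 (6.23) in CLBL-1 8.0, and LAMC3 (8.59), LAMB3 (7.80) and LAMA3 (7.52) in CLBL-1. Among ADAMTS genes they were ADAMTS12 (11.5) and both ADAMTS16 regions (9.18 and 9.12) in CLBL-1 8.0, and ADAMTS7 (14.03), ADAMTS12 (13.4) and ADAMTS16 (11.1) in CLBL-1. ADAMTS7, like ADAMTS12, cleaves cartilage oligomeric matrix protein. Among ADAMTSL genes they were ADAMTSL3 (9.95 and 7.93) and ADAMTSL1 (6.32) in CLBL-1 8.0, and ADAMTSL3 (11.3), ADAMTSL2 (8.51) and ADAMTSL1 (7.63) in CLBL-1. The median fold of member promoter regions was 6.32 in CLBL-1 8.0, where all promoter regions had 5.58, and 7.63 in CLBL-1, where all had 7.12. These values are ranked only within each list.

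No intron region was listed for 7 members that had regions in both lists: ADAMTS19, ADAMTSL5, COL10A1, COL1A2, COL6A2, COL6A5 and COL8A1. COL1A2, the alpha 2 chain of type I collagen, had a single region in each list, over its start, with a fold of 11.7 in CLBL-1 8.0 and 14.3 in CLBL-1. Its partner COL1A1 had its start covered by a region in a CpG island, with a fold of 4.38 in CLBL-1 8.0 and 4.73 in CLBL-1. COL3A1, the fibrillar collagen of vessels and skin, had 7 regions in each list, none with a promoter flag.

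The surplus of regions in CLBL-1 8.0 lay mainly outside CpG islands and shores, less so in the members than over all genes. Of the member promoter regions, 11 of 60 (18.3%) lay outside both in CLBL-1 8.0, where 29.6% of all promoter regions did. In CLBL-1 it was 12 of 55 (21.8%), where 22.0% of all promoter regions did. Of all member regions, 57.1% (53.3 to 60.8) lay outside both in CLBL-1 8.0, against 46.5% (42.1 to 50.9) in CLBL-1. Over all gene regions the share outside was 61.3% for CLBL-1 8.0 and 44.6% for CLBL-1. Islands held 91 member regions in CLBL-1 8.0 against 79 in CLBL-1 (ratio 1.15), shores 207 against 193 (1.07), and the remainder 396 against 236 (1.68). Over all genes the ratios were 1.10 in islands, 1.06 in shores and 2.10 outside.

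Regions with no counterpart in the other list, meaning not even 1 bp in common, were 232 of 694 in CLBL-1 8.0 (33.4%, 29.9 to 37.1), against 59 of 508 in CLBL-1 (11.6%, 8.96 to 14.7). Over all gene regions the share was 39.6% for CLBL-1 8.0 and 8.9% for CLBL-1. The direction depends on list length: with the CLBL-1 8.0 list shortened to that of CLBL-1, the member share was 32.01% in CLBL-1 8.0 against 37.2% in CLBL-1. Among regions with folds over the median of both lists pooled it was 28.7% in CLBL-1 8.0 against 28.3% in CLBL-1. By family, with the full lists, the share in CLBL-1 8.0 was 30.2% for collagens, 33.1% for laminins, 36.8% for ADAMTS and 44.4% for ADAMTSL genes. In CLBL-1 it was 14.7% for collagens, 8.79% for laminins, 7.21% for ADAMTS and 7.41% for ADAMTSL genes. In CLBL-1 8.0 the share was thus lowest for collagens (25.4 to 35.3) and highest for ADAMTSL genes (20 of 45, 29.6 to 60.0). These intervals overlap, so the order of the families is not settled. It was not recomputed with the shortened list. Of the 232 in CLBL-1 8.0, 181 (78.0%) were intronic, beside 23696 of 34496 over all genes. Outside islands and shores lay 86.6% of the 232, beside 87.8% over all genes, and their median length was 308 bp, beside 315 bp over all genes. In the share outside islands and shores and in length they were thus close to the unmatched regions of all genes. Islands, however, held 4.31% (2.09 to 7.78) of the 232, beside 1.77% over all genes. The 59 in CLBL-1 departed in context: 66.1% (52.6 to 77.9) lay outside islands and shores, beside 46.4% over all genes. Shores held 10.2% of them, beside 31.5% over all genes. Of the member regions over 1 kb long, 1 of 76 in CLBL-1 8.0 and 0 of 80 in CLBL-1 had no counterpart. The share among all gene regions over 1 kb is not given here, so these counts do not set the members apart.

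The share of unmatched member regions was lowest near the start. In CLBL-1 8.0 the share without a counterpart was 12.5% upstream (7 of 56), 6.38% to 5 kb (3 of 47), 30.8% from 5 to 20 kb, 31.4% from 20 to 50 kb, 41.7% from 50 to 100 kb and 43.1% farther away. Over all genes it was 29.6% upstream, 26.9% to 5 kb, 42.3% from 5 to 20 kb, 45.5% from 20 to 50 kb, 46.1% from 50 to 100 kb and 43.4% farther away. In CLBL-1 8.0 the member values lay lower than those of all genes out to 50 kb and within 5 percentage points of them beyond. In CLBL-1 they lay lower upstream and to 5 kb, but higher in each bin farther away. There they were 16.5% from 5 to 20 kb, where all genes had 10.3%, and 11.0% beyond 100 kb, where all had 9.33%. ADAMTS and ADAMTSL genes together had 74 regions beyond 100 kb in CLBL-1 8.0 against 35 in CLBL-1, and 39 of the 74 met no CLBL-1 region.

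**Figure D4:**
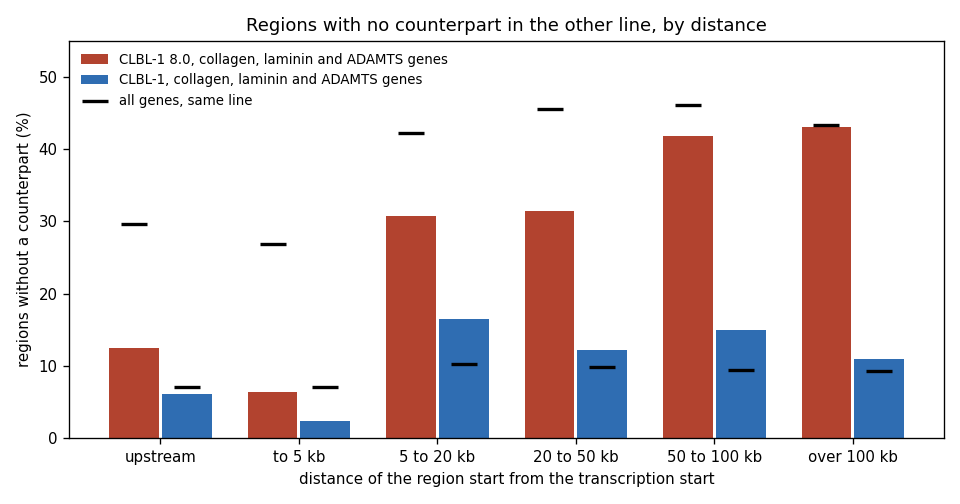
Share of member regions without a counterpart in the other list (vertical axis, %) by distance of the region start from the transcription start, CLBL-1 8.0 in red left of CLBL-1 in blue, with black dashes for all gene regions of the same line. In CLBL-1 8.0 the share is 12.5% upstream, 6.38% in the first 5 kb and 43.1% beyond 100 kb, where all gene regions stand at 43.4%.

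The member regions of highest fold were common to both lists. The 10 highest in CLBL-1 8.0, with folds of at least 13.9, and the 10 highest in CLBL-1, with folds of at least 18.1, each had a counterpart. They were led by the COL12A1 3′ untranslated region (17.7) and a LAMA2 intron (17.6) in CLBL-1 8.0, and by the COL6A5 promoter (20.9), a COL21A1 intron (20.7) and the same LAMA2 intron (20.7) in CLBL-1. COL12A1 and COL21A1 are FACIT collagens. LAMA2 introns supplied 4 of the 10 in CLBL-1 8.0 and 3 of the 10 in CLBL-1. How often the regions of highest fold over all genes had a counterpart is not given here.

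Location class could differ between regions that overlap across the lists. In 437 pairs of regions that met only each other, the starts differed by a median of 39 bp and the ends by 40 bp. In 63 of them (14.4%) the location class differed between the tables, with 16 called exon in CLBL-1 8.0 and intron in CLBL-1, and 25 called intron in CLBL-1 8.0 and exon in CLBL-1. In 18 pairs the named gene differed. The medians cover all 437 pairs, and whether a change of class went with the size of the shift was not tested.

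Genes that act on or bind these proteins were counted from a list of 57 related matrix genes. MMP10 was planned for the list but not counted. Of the 57, 55 had any region in CLBL-1 8.0, whereas every named gene in the background has a region in either list. In that list, 32 had a promoter region in CLBL-1 8.0 against 25 in CLBL-1, with 25 in both, 7 in CLBL-1 8.0 alone and 0 in CLBL-1 alone. The 32 and 25 make up 56.1% and 43.9% of the list, where 46.8% and 37.8% of named genes had a promoter region in these lists, and the 7 of 57 lie at the 12.3% of named genes with a promoter region in CLBL-1 8.0 alone. Matrix receptors accounted for 8 of 12 in CLBL-1 8.0 against 5 of 12 in CLBL-1, and collagen processing enzymes and helpers for 16 of 23 against 12 of 23. Matrix proteinases and their inhibitors had 7 of 18 in each line, and basement membrane partners 1 of 4 in each line. The receptors listed in CLBL-1 8.0 alone were the integrin chains ITGB1 (fold 4.75) and ITGB4 (4.56) and the collagen receptor kinase DDR1 (9.81), although by position DDR1 also had a CLBL-1 region in its upstream window. The processing genes listed in CLBL-1 8.0 alone were P3H1 (4.12), a prolyl hydroxylase, PLOD2 (4.43), a lysyl hydroxylase, TLL2 (4.51), a tolloid-like protease, and PCOLCE (5.66), which enhances procollagen cleavage.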

How the data were processed

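Methylated DNA of 4 libraries, 1 low salt and 1 high salt from each line, was captured and sequenced, per the labels' protocols. The submitters' processing notes name BWA, MACS2 and CanFam3.1; roles, versions and settings are not stated. The deposited fold enrichment, made by the authors as a linear ratio per region, was at least 2.00 in both lists, and its background is not stated. Nor is it stated whether eluates were pooled or whether positions count from 0 or 1; they are printed as tabulated. Depth is unknown.

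Each gene's transcription start was computed from region start, strand and signed distance. Regions sharing 1 bp or more were counterparts, a search tested on simulated intervals. Rows with displaced cells (6 in CLBL-1 8.0, 2 in CLBL-1) were kept without a gene. RefSeq symbols of UU_Cfam_GSD_1.0 served for names only. Exact binomial 95% intervals came from scipy 1.17.1 in Python 3.11.15 with pandas 2.3.3.

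Members and gene lists were chosen with earlier results of these data known. Named genes were those with a promoter region in 1 line only, the 10 with most regions, the 10 with the widest gap (with ties), the 3 promoter regions of highest fold per family and line, and those in both lists without an intron region. Others, such as COL7A1, COL18A1, COL1A1, COL3A1, ADAMTS13 and the type IV pairs, were chosen after their values were seen. The values of 1 member are not reported or drawn here, though it is kept in all totals. Alternatives varied the overlap, fold limit, list length, promoter definition, gene assignment, members and chromosomes.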

Additional observations from a re-analysis of the deposited data

How the results depend on the processing

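Members with a promoter region stayed within 1.5 times of the reported counts under every alternative run, from 39 to 53 for CLBL-1 8.0 and, for CLBL-1, from 34 to 52. No paired analysis was possible because the lines have a single list each. In the pairs below CLBL-1 8.0 is given against CLBL-1, and ADAMTS includes ADAMTSL. With regions above the pooled median fold of 5.28, exon regions numbered 26 against 27 for collagens (ratio 0.963), 9 against 7 for laminins and 13 against 14 for ADAMTS genes (0.929). Intron regions numbered 90 against 108 for collagens (0.833), 48 against 42 for laminins and 77 against 59 for ADAMTS genes. Promoter regions numbered 20 against 16 for collagens (ratio 1.25) and 6 against 4 for laminins (1.5), and the ADAMTS promoter ratio was 1.0. The share without a counterpart was 28.7% against 28.3%. With the CLBL-1 8.0 list shortened to the length of the CLBL-1 list, ratios for promoters, exons and introns were 0.852, 0.625 and 0.898 for collagens (40 exon and 159 intron regions in CLBL-1 8.0). Promoter and exon ratios were 0.75 and 0.714 for laminins (15 exon regions) and 0.95 and 0.815 for ADAMTS genes (22 exon regions). The share without a counterpart turned round, to 32.01% against 37.2%, fewer CLBL-1 8.0 regions being left for CLBL-1 regions to meet. Requiring 50% of both regions in common gave 39.8% against 18.7%. Without ADAMTSL genes, CLBL-1 had 13 ADAMTS promoter regions. Counting the displaced row for COL7A1, an alternative chosen after seeing the data, gave a collagen promoter ratio of 1.0. Where no construction is named, the cause was not tested. Unknown depth limits every absence.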
